A study of Mus musculus with 12 samples.

Results

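Manganese-doped carbon dots were compared with phosphate-buffered saline (PBS) in the lumbar spinal cord of mice that model amyotrophic lateral sclerosis (ALS). The comparison rests on 6 of the 12 RNA-seq libraries of the study, 1 per mouse, and on 18119 genes with enough reads to test. Group C held the model mice given the carbon dots, which are mice C79, C84 and C85, and group P held the model mice fed PBS (P66, P67 and P74), which serve as the untreated control. Healthy wild-type mice (group H, 3 mice) show where a gene stands without disease. A further group E of 3 model mice was read as edaravone-treated by elimination, since the series text describes that drug under another letter. C and P therefore share the disease genotype and differ by the treatment. The sources used here name neither the model's strain or transgene, nor the age of the mice, nor the dose and length of treatment, and the stage of disease at sampling is unknown.

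ALS is a disease in which motor neurons of the cord and cortex die, and in mouse models their loss is accompanied by activated microglia and reactive astrocytes. Superoxide dismutases convert superoxide to hydrogen peroxide, which catalase, glutathione peroxidases and peroxiredoxins then remove, and the transcription factor NRF2 switches on many genes of this defence. Nanozymes are small particles that act like enzymes, and the series title describes these dots as acting like a superoxide dismutase. The question put to the RNA was which genes of the diseased cord differ once the particle has been given.

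Levels are FPKM, which count fragments or reads per kilobase of exon and are scaled to the depth of the library. Differences are C minus P means of log2(FPKM + 1) with n = 3 mice per group, given as value ± standard error, and p-values come from limma with Benjamini-Hochberg adjustment over all tested genes. The libraries held 16.8 to 19.8 M recovered reads. C79 and C85 stood apart from C84: among the 6 possible pairs within C or P, C79 and C85 were the closest (r = 0.993 over genes, a description of 2 libraries), and on the first principal component (35.2% of the variance) they lay at 21.2 and 18.8, against -2.34 for C84 and -18.3 to -9.22 for the P mice. The second component (31.2%) separated the P mice from each other, from -20.5 for P66 to 26.4 for P74. Neither split matches a label, so results that rest on C79 and C85 are also given without them, which leaves C84 as the single C mouse. In whole tissue, fewer cells of a type and less RNA per cell cannot be told apart.

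A single gene model passed the test between C and P, out of 18119 tested (0.00552%). It was Gm10479, a long noncoding RNA on chromosome 12, and it was higher with the carbon dots. It had enough reads to enter the test only in the C libraries, where it was high. No gene passed with a lower level in C (limma), although Hoxc12 did without P66 (adjusted p = 0.0074, limma). At an unadjusted p under 0.05 there were 1802 genes (9.95%), 1129 of them higher in C (6.23%) and 673 lower (3.71%), and limma-voom on the recovered reads called 0 genes in either direction. The smallest adjusted p after Gm10479 was 0.0717 (limma). Large changes were uncommon as well. The difference reached 2-fold in 43 genes (0.237%), and for 17413 genes (96.1%) the whole 95% confidence interval lay within a log2 difference of 1 on either side of 0. The median interval, which is not adjusted for the number of genes, reached 0.25 to either side with 3 mice per group. Differences smaller than that were mostly not detectable. A larger difference did not ensure a pass after adjustment either: 43 genes differed at least 2-fold, and 1 gene passed.

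**Figure D1:**
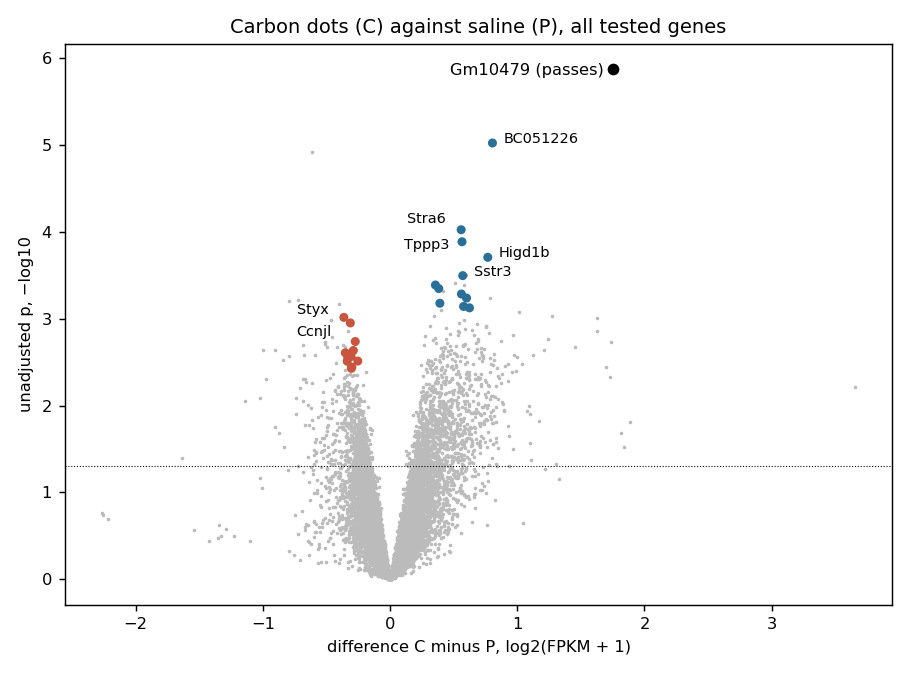
Each point is 1 of the 18119 tested genes, with the C minus P difference in log2(FPKM + 1) on the horizontal axis and the unadjusted p as −log10 on the vertical axis. The dotted line marks an unadjusted p of 0.05, the black point is Gm10479 (adjusted p = 0.0243, limma), and blue and red points are 12 higher and 12 lower genes chosen by p under the naming rule, with differences of 0.36 to 0.81 and -0.36 to -0.25.

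Gm10479 (ENSMUSG00000073184) lies on chromosome 12, plus strand, from 19292813 to 19301264 on GRCm38 and is annotated as a lincRNA. Its level was 0.547 FPKM in P66, 0.362 in P67 and listed at 0 in P74, and 2.80 in C79, 2.73 in C84 and 4.65 in C85. All 3 C mice were above all 3 P mice, and the healthy mice lay between them at 1.5, 2.23 and 2.18 FPKM. The difference was 1.75 ± 0.19 (95% interval 1.32 to 2.17, adjusted p = 0.0243, limma). The counts behind it are small: the values equal whole reads for an exon length of 318 bases, and correspond to 3, 2 and 0 reads in the P mice and 16, 16 and 23 in the C mice. This length was found from the values and is not that of the annotated transcript. The filter, the limma-voom reads and the shared stretches that follow use the annotated one. Of the 211 stretches of 31 bases in its annotated transcript, 57.3% also occur in transcripts of other genes, 45 genes in all, among them Gm4425, Gm40881 and the zinc finger gene Zfp125. Its reads may therefore come from any of these copies, and the value is uncertain. At the annotated length, only the 3 C libraries reached the level that the filter on reads requires. Gm10479 thus entered the test through the group in which it was high, and its p does not allow for that. The call was also lost in most alternative analyses, for example with a pseudocount of 0.1 (adjusted p = 0.209, limma) and with limma-voom (adjusted p = 0.457), although its difference stayed above 0 in all 15, from 1.54 to 3.45.

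The 12 genes of smallest p that were higher in C did not pass. BC051226, a gene model on chromosome 17 (33908044 to 33909317, minus strand), came first. It was at 1.60, 1.35 and 1.2 FPKM in P66, P67 and P74 and at 3.13, 3.32 and 3.02 in C79, C84 and C85, a difference of 0.81 ± 0.11 (adjusted p = 0.0717, limma). Tppp3, a microtubule-binding protein, was at 77, 91.7 and 77.8 FPKM in the P mice and 125, 111 and 129 in the C mice, with 125, 126 and 143 in the healthy mice, a C minus P difference of 0.57 ± 0.10. The C mice overlapped the healthy mice, and the P mice lay below both.

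Stra6, the cell-surface receptor that takes up vitamin A from its carrier protein, was at 0.795, 0.742 and 0.626 FPKM in P and 1.52, 1.59 and 1.49 in C, a difference of 0.56 ± 0.10. Here the healthy mice were lowest, at 0.307, 0.393 and 0.387, so the C mice lay farther from health than the P mice. Higd1b, a marker of pericytes, differed by 0.77 ± 0.14, with 1.85, 2.25 and 1.80 FPKM in P and 5.46, 3.65 and 3.27 in C. Sstr3, a somatostatin receptor of neuronal primary cilia, differed by 0.57 ± 0.11. Also among the 12 were Tmem125 (0.36), the small GTPase Arf5 (0.38), the spliceosome component Snrnp25 (0.56), Ccdc124 (0.60), the lipid droplet protein Plin3 (0.39) and the chromatin remodelling subunit Ino80b (0.58). All of these after BC051226 had an adjusted p of 0.395 (limma), and in each the lowest C mouse was above the highest P mouse, as the naming rule requires.

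The 12 genes of smallest p that were lower in C differed less, by -0.36 to -0.25, and also had an adjusted p of 0.395 (limma). Ppib, cyclophilin B, a folding helper of the endoplasmic reticulum, was at 23.4, 22.2 and 20.4 FPKM in P66, P67 and P74 and at 17.2, 17.4 and 17.1 in C79, C84 and C85, a difference of -0.33 ± 0.09, beside 16.6, 16.9 and 17.5 in the healthy mice. Gna13, a G protein alpha subunit that signals to RhoA, was at 22.6, 22.3 and 20.2 FPKM in P and 15.7, 18.2 and 18.1 in C, a difference of -0.31 ± 0.08, beside 15, 14.2 and 14.4 in H. For Ppib the C mice overlapped the healthy mice, and for Gna13 they lay between the healthy and the P mice. The remaining genes were the pseudophosphatase Styx (-0.36), Ccnjl (-0.31), Gtpbp8 (-0.27), the splicing factor Srsf4 (-0.29), Desi2 (-0.35), Cdca7 (-0.31), the mitochondrial poly(A) polymerase Mtpap (-0.25), Amot (-0.34), the synaptic adhesion protein Lrrc4c (-0.30) and the pantothenate kinase Pank3 (-0.30).

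**Figure D2:**
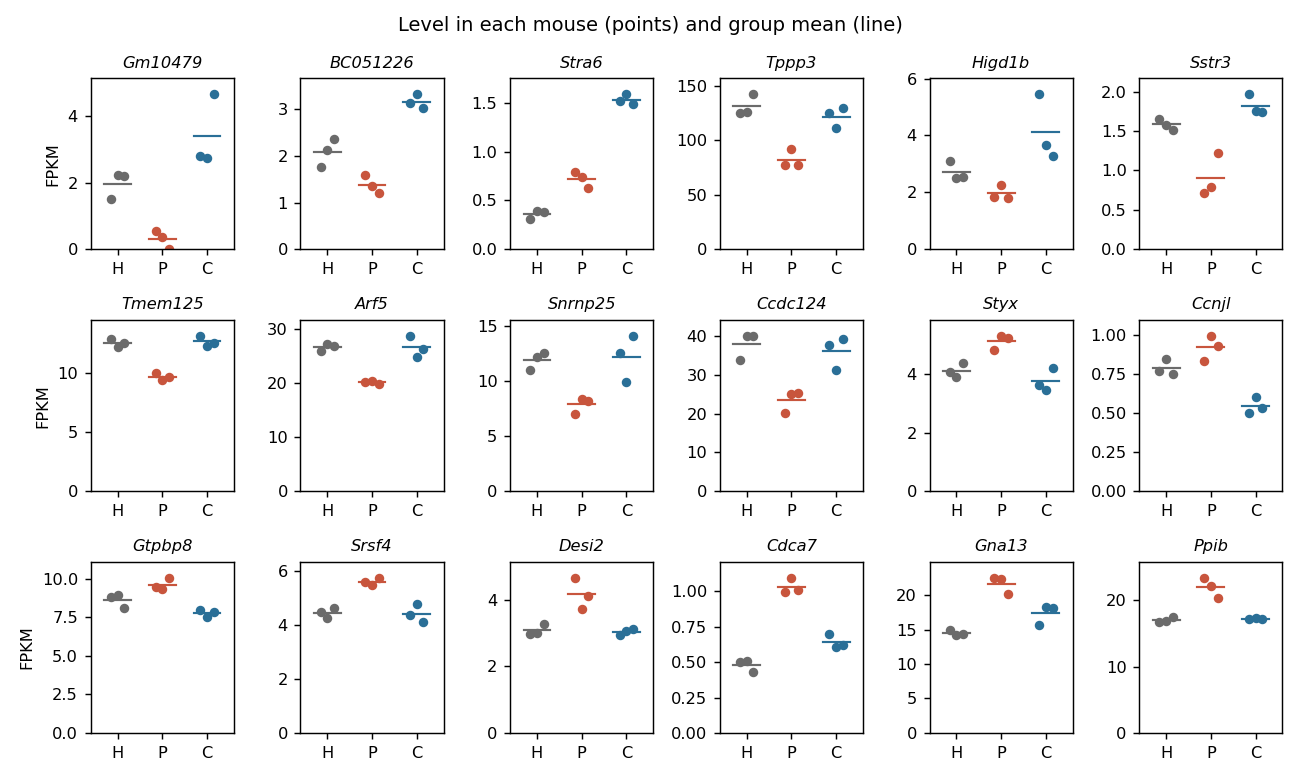
FPKM in each mouse (points) and group mean (line) for Gm10479, 9 genes that were higher in C and 8 that were lower, in the healthy (H, grey), PBS (P, red) and carbon dot (C, blue) groups, with every axis starting at 0. C and P do not overlap in any panel, which the naming rule requires, and the healthy mice lie near the C mice for Tppp3, Tmem125, Arf5 and Ppib but below both groups for Stra6.

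The genes closest to the particle's own activity are those of superoxide and peroxide removal, and of the 23 tested none passed. Their median difference was 0.16, against -0.02 over all genes, and 16 of 23 were above 0 (all genes 45.4%). At an unadjusted p under 0.05, 5 were higher in C (21.7%, all genes 6.23%) and 0 lower (all genes 3.71%). The groups did not overlap in 6 with C higher (all genes 8.33%) and 3 with C lower (all genes 8.77%). Sod1, the cytosolic copper and zinc dismutase, was at 140, 161 and 152 FPKM in P66, P67 and P74, and at 238 in C79, 146 in C84 and 273 in C85. The difference of 0.49 ± 0.23 (adjusted p = 0.508, limma) came from C79 and C85, while C84 lay inside the P range, and without those 2 mice it was -0.05. Sod2, the manganese dismutase of mitochondria, was at 24.5, 27.0 and 34.7 FPKM in P and 28.0, 27.1 and 28.0 in C, with a difference of -0.04 and a 95% interval of -0.30 to 0.23. Sod3, the secreted dismutase, differed by 0.23 (-0.20 to 0.66), and Ccs, the copper chaperone of Sod1, by 0.35 (-0.07 to 0.76).

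The members with the smallest p were peroxide enzymes. Gpx4, which reduces lipid peroxides, was at 91.8, 103 and 101 FPKM in P and 143, 111 and 148 in C, a difference of 0.43 ± 0.12 (adjusted p = 0.397, limma). Prdx4, the peroxiredoxin of the endoplasmic reticulum, was at 6.83, 5.25 and 5.61 in P and 8.41, 7.18 and 7.79 in C, a difference of 0.35 ± 0.11. Both had all C mice above all P mice, with C84 the lowest of the C mice. Txn1, thioredoxin, differed by 0.48 ± 0.16, Prdx5 by 0.43 ± 0.14 and Gpx1 by 0.40 ± 0.14. Catalase (Cat) was at -0.13 ± 0.11 and Prdx6 at -0.11 ± 0.19. Without C79 and C85 the median of the 23 genes was 0.05.

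**Figure D3:**
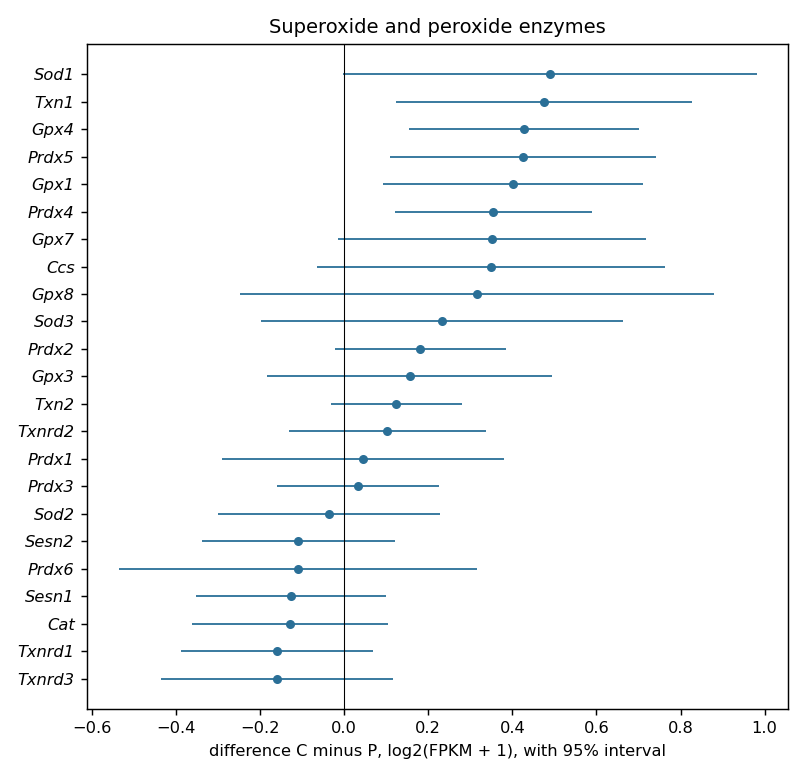
C minus P difference in log2(FPKM + 1) with its 95% confidence interval (limma, 3 mice per group) for the 23 superoxide and peroxide enzymes, ordered by size. The intervals of 5 genes (Txn1, Gpx4, Prdx5, Gpx1 and Prdx4) lie above 0, that of Sod1 reaches from just under 0 to 0.98, and that of Sod2 spans 0.

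NRF2 targets and regulators showed no common direction. None of the 25 passed, the median was -0.03, and 12 were above 0 (48%, all genes 45.4%). At an unadjusted p under 0.05, 4 were higher in C (16%, all genes 6.23%) and 0 lower (all genes 3.71%). The 4 were the pentose phosphate enzyme Taldo1 (0.28 ± 0.09), the glutathione transferase Gstp1 (0.41 ± 0.16), the biliverdin reductase Blvrb (0.34 ± 0.13) and the ferritin heavy chain Fth1 (0.48 ± 0.21). Hmox1, heme oxygenase 1, was at 24.5, 14.7 and 10.2 FPKM in P and 9.32, 10.4 and 11.3 in C, beside 3.78, 3.86 and 3.04 in H. The C mice were level with the lowest P mouse, and the difference was -0.54 ± 0.25 (adjusted p = 0.508, limma). Ftl1, the ferritin light chain, was at 45.7, 33.8 and 19.7 in P and 19.4, 18.3 and 23.3 in C, a difference of -0.60 ± 0.28. Nfe2l2, which encodes NRF2 itself, was at -0.21 ± 0.14. For Hmox1, Ftl1 and Nfe2l2 the order of the P mice was P66, P67, P74, from highest to lowest.

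Promoters of these genes are shown because the antioxidant response element, to which NRF2 binds, is the sequence through which such genes are known to be switched on together. The core TGACNNNGC was searched on both strands in RefSeq windows of 300 bases on GRCm38.p6, from 250 bases before to 50 after each transcription start. Of 32851 windows, 4071 (12.4%) held it. Of the 48 genes of the superoxide, peroxide and NRF2 lists 40 had at least 1 window, and 11 of their 52 windows (21.2%) held a match, in 11 genes. The windows of Sod1 (chr16:90220512-90220811, plus strand), of the glutathione synthesis subunit Gclm (chr3:122245307-122245606, plus strand) and of the thioredoxin reductase Txnrd1 (chr10:82858956-82859255, plus strand) follow, with the match in capitals. All 3 matches read as the reverse complement, and they begin 56, 134 and 92 bases before the start.
Sod1: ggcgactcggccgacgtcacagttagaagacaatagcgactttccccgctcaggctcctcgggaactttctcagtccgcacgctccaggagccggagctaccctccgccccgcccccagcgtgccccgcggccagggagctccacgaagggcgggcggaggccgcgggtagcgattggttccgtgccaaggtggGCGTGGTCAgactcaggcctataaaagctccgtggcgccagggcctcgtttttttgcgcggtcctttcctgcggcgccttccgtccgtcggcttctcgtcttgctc
Gclm: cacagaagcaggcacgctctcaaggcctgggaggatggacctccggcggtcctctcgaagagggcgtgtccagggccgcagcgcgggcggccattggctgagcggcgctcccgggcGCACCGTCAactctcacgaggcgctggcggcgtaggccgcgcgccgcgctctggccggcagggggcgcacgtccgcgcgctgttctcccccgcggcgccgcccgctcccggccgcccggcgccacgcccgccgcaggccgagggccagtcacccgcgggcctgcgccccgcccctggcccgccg
Txnrd1: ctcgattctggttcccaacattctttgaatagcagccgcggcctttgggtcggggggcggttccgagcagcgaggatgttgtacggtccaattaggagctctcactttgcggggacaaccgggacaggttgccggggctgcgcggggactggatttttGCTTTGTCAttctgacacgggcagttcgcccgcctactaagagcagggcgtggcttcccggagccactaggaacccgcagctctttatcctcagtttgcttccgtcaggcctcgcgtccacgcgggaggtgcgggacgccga
The genes that share the letters did not share a direction: the C minus P difference was 0.49 for Sod1, -0.03 for Gclm and -0.16 for Txnrd1. A match is a string of letters and not a measured binding site.

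Genes that handle manganese, zinc and iron were measured because the particle carries manganese. None of 22 passed, the median was -0.06 and 6 were above 0 (27.3%, all genes 45.4%). The manganese importers and exporter of the cell membrane showed small differences: Slc39a14 -0.19 ± 0.18, Slc39a8 0.08 ± 0.09 and the exporter Slc30a10 -0.07 ± 0.10, whose 95% interval ran from -0.28 to 0.14. Slc39a12, a zinc transporter of astrocytes, had the smallest p, with 53.1, 46.1 and 48.9 FPKM in P and 37.0, 44.1 and 36.4 in C, a difference of -0.33 ± 0.10 (adjusted p = 0.397, limma). The metallothioneins, small proteins that bind zinc and copper, split the C mice: Mt1 was at 537 and 655 FPKM in C79 and C85 and at 313 in C84, beside 467, 363 and 251 in P. Its difference was 0.46 ± 0.31, and that of Mt3, the neural form, was 0.20 ± 0.28. Among 9 enzymes that use manganese as a cofactor the median was 0.00 and none passed.

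The strongest marks of disease in the cord were about as high with the carbon dots as with PBS. P and C were each set against the same healthy mice, so their differences from health share those mice and, in C minus P, the P mice, and are given side by side as values. Between P and H, 2807 genes passed (15.5%), 2216 higher (12.2%) and 591 lower (3.26%), and between C and H 1505 (8.31%), 1313 higher (7.25%) and 192 lower (1.06%). Disease-associated microglia, the activated state seen around dying neurons, had 28 tested genes with a median of 2.14 in P minus H, 2.05 in C minus H and -0.07 in C minus P, where 11 of 28 were above 0 and none passed. Clec7a, a pattern receptor of these cells, was at 55.2, 31.1 and 19.2 FPKM in P66, P67 and P74 and at 20.1, 25.3 and 30.5 in C79, C84 and C85, against 0.248 to 0.460 in health. Its C minus P difference was -0.35 (95% interval -1.03 to 0.32, adjusted p = 0.740, limma). Cst7, a cystatin, was at 46.7, 32.4 and 17.6 in P and 24.6, 27.2 and 32.7 in C, a difference of -0.10 ± 0.34, and the integrin Itgax was at -0.35 ± 0.30. The C mice lay inside the wide range of the P mice, among which P66 was highest and P74 lowest.

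The list medians depended on that spread among the PBS mice, while the standard errors rest on a spread estimated over all groups together. The mean log2(FPKM + 1) over the microglial genes was 6.22, 5.78 and 5.09 in P66, P67 and P74, and 5.45, 5.71 and 5.86 in C79, C84 and C85, beside 3.36 to 3.47 in health. Leaving out P66 moved the median C minus P difference to 0.24, and leaving out P74 to -0.32. The same held for complement, whose 13 genes had a median of 2.39 in P minus H and 0.02 in C minus P, with 0.27 without P66 and -0.23 without P74. C4b, a classical complement component, was at 184, 150 and 108 FPKM in P and 130, 143 and 141 in C, a difference of -0.06 ± 0.18. The complement receptor C3ar1 was at -0.16 ± 0.24 and the integrin Itgb2 at -0.22 ± 0.25. NADPH oxidase, the microglial enzyme that makes superoxide, had a median of 1.29 in P minus H and 0.00 in C minus P over 8 genes. Its catalytic subunit Cybb was at -0.35 ± 0.30 and its membrane partner Cyba at 0.55 ± 0.30. The interferon response had a median of -0.26 in C minus P over 22 genes. Of these, 18 were below 0 and 4 above (18.2%, all genes 45.4% above), and none passed. This median was -0.03 without P66, -0.16 without C79, -0.45 without C85 and -0.45 without P74.

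Of 20 reactive astrocyte genes none passed, and the median was -0.11, beside 1.72 in P minus H. It was 0.15 without P66 and -0.45 without P74. Serpina3n, a protease inhibitor with the smallest p of this list in P against H, was at 670, 446 and 233 FPKM in P and 257, 364 and 360 in C, a difference of -0.35 ± 0.35. Cd109 was at -0.04 ± 0.21 and Aspg at -0.12 ± 0.24. Of 15 astrocyte identity genes 5 were above 0 (33.3%, all genes 45.4%) and 10 below, with a median of -0.10. At an unadjusted p under 0.05, 4 were lower in C (all genes 3.71%) and 0 higher, and the same 4 had every C mouse below every P mouse (all genes 8.77%). The water channel Aqp4 was at 395, 272 and 217 FPKM in P, 186, 198 and 206 in C and 83.5, 90 and 83.2 in H, a difference of -0.54 ± 0.17 (adjusted p = 0.408, limma). The main glutamate transporter Slc1a2 was at 205, 191 and 200 in P and 154, 170 and 158 in C, a difference of -0.31 ± 0.09. The bicarbonate transporter Slc4a4 (-0.27 ± 0.08) and the second glutamate transporter Slc1a3 (-0.23 ± 0.10) completed the 4. The difference of Aqp4 was -0.53 without C79 and C85, and -0.31 without P66.

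**Figure D4:**
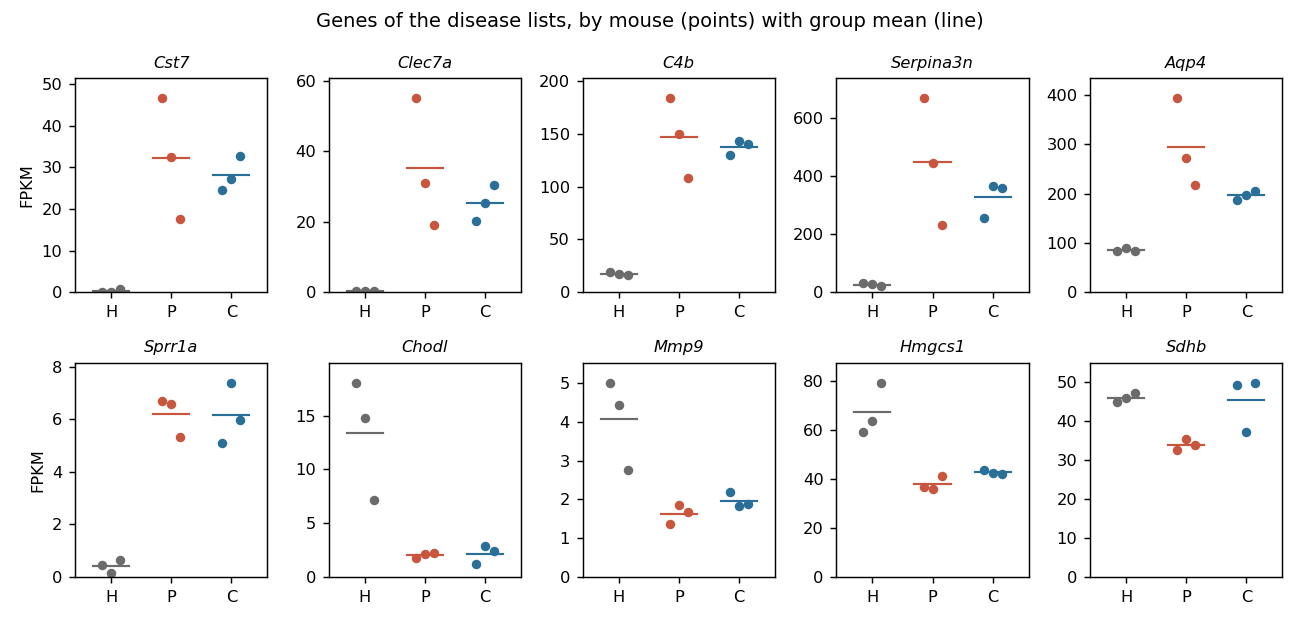
FPKM in each mouse (points) and group mean (line) of 10 genes in the healthy (H, grey), PBS (P, red) and carbon dot (C, blue) groups, with every axis starting at 0. For Cst7, Clec7a, C4b and Serpina3n the C mice lie within the spread of the P mice, for Aqp4 all C mice lie below all P mice, for Chodl and Mmp9 C stays as low as P, and for Sdhb 2 of the C mice lie above the healthy values.

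Motor neuron genes did not differ in a common direction between C and P. Their mean log2(FPKM + 1) was 3.73, 4.10 and 4.36 in P66, P67 and P74, and 3.92, 4.17 and 4.08 in C79, C84 and C85. The healthy mice were at 5.02, 4.92 and 4.25, so H4 lay inside the P range. The 18 genes had a median of -0.68 in P minus H, -0.74 in C minus H and 0.02 in C minus P, with 10 above 0. The C minus P median moved to 0.13 without P74 and to -0.16 without P66, and none of the genes passed. Chodl, a marker of fast motor neurons, was at 1.76, 2.16 and 2.23 FPKM in P and 1.17, 2.88 and 2.37 in C, against 18.1, 14.8 and 7.19 in health, and its C minus P difference was 0.00 with a 95% interval of -0.60 to 0.61. Mmp9, also of the vulnerable fast motor neurons, was at 1.38, 1.86 and 1.68 in P and 2.19, 1.84 and 1.89 in C, a difference of 0.17 ± 0.15. Uchl1, a ubiquitin hydrolase abundant in neurons, was at 125, 158 and 170 in P and 201, 165 and 198 in C, a difference of 0.32 ± 0.12 (adjusted p = 0.431, limma). Isl1, a motor neuron transcription factor, was at -0.26 ± 0.11. Among 20 general neuron and synapse genes the median was 0.05, and the axonal protein Stmn3 (0.48 ± 0.18) and the GABA enzyme Gad2 (-0.33 ± 0.13) led this list by p, 1 in each direction. The axon injury genes Sprr1a (-0.01 ± 0.17), Atf3 (-0.27 ± 0.33) and Ecel1 (-0.26 ± 0.11) belonged to a list of 16 with a median of -0.01, beside 0.55 in P minus H.

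Hox genes, whose expression in the adult cord follows position along the body axis, differed between the mice. Of 9 tested caudal Hox genes, which mark the lower lumbar and sacral cord, all had a lower mean in C, with a median of -0.62. Of these, 3 had an unadjusted p under 0.05 (all genes 3.71% lower), and 1 had every C mouse below every P mouse (all genes 8.77%). Their mean log2(FPKM + 1) was 0.86, 2.09 and 2.55 in P66, P67 and P74, and 1.34, 0.54 and 1.26 in C79, C84 and C85. P66 thus lay below C79 and C85, and the healthy mice ran from 0.32 to 1.67. Hoxc12 was listed at 0 in P66 and was at 1.45 and 2.40 FPKM in P67 and P74, and it was listed at 0 in every C mouse. Hoxc11 was listed at 0 in P66, at 5.25 and 6.84 in P67 and P74, and between 0 and 0.286 in C. Hoxd13 was below 0.4 FPKM throughout. Of 12 thoracic Hox genes 10 were above 0 (all genes 45.4%), with a median of 0.25 and every C mouse above every P mouse in 6 (all genes 8.33%). Hoxb6 was at 17.3, 18.3 and 19.2 in P and 31.7, 30.2 and 29.3 in C, and Hoxc9 differed by 0.31 ± 0.13. With the caudal Hox score of each library as a covariate the motor neuron median was 0.26 in place of 0.02. That of disease-associated microglia was then -0.25 in place of -0.07, with 10.7% of its genes above 0. The part of cord level in the results was not tested.

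Nuclear genes of the respiratory chain and genes of the cytosolic ribosome were above P in most members, and the high values were those of C79 and C85. Of 32 nuclear genes of oxidative phosphorylation, which makes ATP in mitochondria, none passed, but 29 were above 0 (all genes 45.4%), 15 were higher at an unadjusted p under 0.05 (all genes 6.23%) and 0 lower (3.71%), and the median was 0.27. In P minus H the median was -0.42, and 15 of the 32 passed as lower (all genes 3.26%). In C minus H the median was -0.14, and 1 of the 32 passed as lower (all genes 1.06%). Their mean log2(FPKM + 1) was 5.34, 5.48 and 5.54 in P66, P67 and P74, and 5.92 in C79, 5.48 in C84 and 5.92 in C85, beside 5.82 to 5.99 in health. C84 was inside the P range. Sdhb, the iron-sulfur subunit of complex II, was at 32.5, 35.2 and 33.9 FPKM in P, at 49.2, 37.0 and 49.7 in C and at 44.7, 45.7 and 47.1 in H, a C minus P difference of 0.40 ± 0.11 (adjusted p = 0.395, limma). Cox5b of complex IV was at 44.9, 48.9 and 53 in P and 101, 56.4 and 101 in C, a difference of 0.76 ± 0.22. The ATP synthase subunit Atp5d differed by 0.52 ± 0.14, the complex I subunits Ndufb9 by 0.60 ± 0.18 and Ndufa9 by 0.37 ± 0.16, and cytochrome c (Cycs) by 0.28 ± 0.11. The median of the list was 0.02 without C79 and C85. Of 12 mitochondrially encoded genes 7 were above 0, with a median of 0.05 and none at an unadjusted p under 0.05.

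The 76 cytosolic ribosomal protein genes, a list added after their values had been seen, followed the same mice. None passed, 75 were above 0 (all genes 45.4%), 54 were higher at an unadjusted p under 0.05 (all genes 6.23%), and the median was 0.56. Their mean log2(FPKM + 1) was 5.48, 5.51 and 5.32 in P, and 6.12 in C79, 5.53 in C84 and 6.25 in C85. The healthy mice ran from 5.21 to 5.93, so they differed among themselves by more than this median. Rpl29 was at 51.1, 56.5 and 50.9 FPKM in P and 98.6, 72.7 and 105 in C, a difference of 0.78 ± 0.19. Many of these genes have near-identical processed copies, so single values are uncertain. The 74 mitochondrial ribosomal proteins, also added after their values had been seen, had a median of 0.16, with 62 above 0 (all genes 45.4%). The cytosolic median was 0.08 without C79 and C85.

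Gene length moved with the same contrast. Over all tested genes the median C minus P difference was 0.10 in the sixth with the shortest exon length, up to 1775 bases, and -0.07 in the longest, and by GC share it was -0.06 in the lowest sixth and 0.09 in the highest. Among the shortest genes C79 and C85 lay above the mean of the 6 mice and C84 below it. The ribosomal protein genes had a median exon length of 1805.5 bases and the oxidative phosphorylation genes of 2139.5, against 3931 over all genes. With length and GC trends removed in each library the medians were 0.47 and 0.27, so most of both differences remained. The part of RNA quality in them was not tested.

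**Figure D5:**
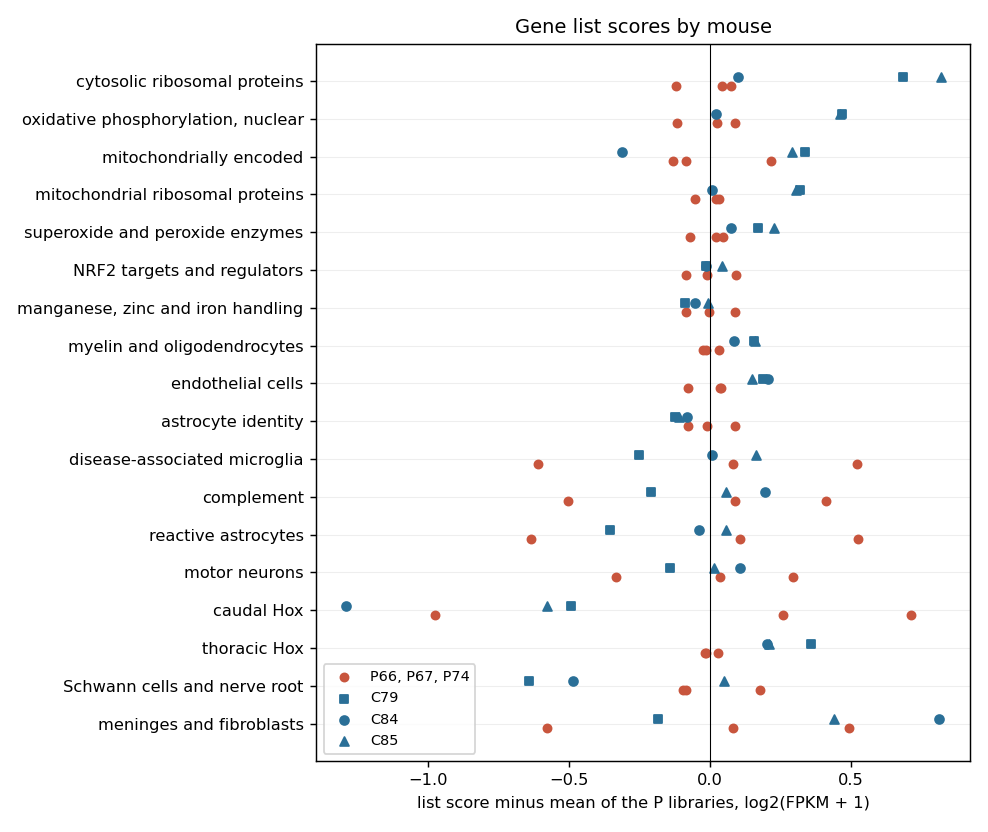
Mean log2(FPKM + 1) of 18 gene lists in each mouse, as the difference from the mean of the 3 P libraries, for P (red circles) and for C79 (blue squares), C84 (blue circles) and C85 (blue triangles). C79 and C85 stand apart from C84 and P in the cytosolic ribosomal and nuclear oxidative phosphorylation lists, whereas the P mice spread widely in the microglial, complement and reactive astrocyte lists and enclose the C mice.

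Myelin and vessel genes were slightly higher in C in most members. Of 18 myelin and oligodendrocyte genes 16 were above 0 (all genes 45.4%), with a median of 0.10 and none passing. At an unadjusted p under 0.05, 5 were higher (all genes 6.23%) and 0 lower (3.71%). The connexin Gjb1 was at 40.4, 44.0 and 44.7 FPKM in P and 49.3, 53.6 and 51.2 in C (0.25 ± 0.11), and the myelin surface protein Mog differed by 0.26 ± 0.11. All 15 endothelial genes were above 0 (all genes 45.4%), with a median of 0.16, and 7 had every C mouse above every P mouse (all genes 8.33%). Cldn5, a tight junction protein of the blood-brain barrier, was at 17.1, 20 and 19.3 in P and 30.3, 22.0 and 28.3 in C (0.48 ± 0.18), and Ly6c1 also differed by 0.48 ± 0.18. Without C79 and C85 the medians were 0.06 for myelin and 0.21 for endothelium. Cholesterol synthesis, which supplies myelin, stayed as low as in P: the median was -0.57 in P minus H, -0.53 in C minus H and -0.03 in C minus P over 20 genes. Hmgcs1, an early enzyme of the pathway, was at 36.9, 35.7 and 41.4 FPKM in P and 43.8, 42.4 and 41.9 in C, beside 59.1, 63.7 and 79.4 in H. Stard4 was at -0.08 ± 0.10 and Fdft1 at 0.07 ± 0.10.

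Markers of tissues around the cord also differed between the mice. Of 15 genes of meninges and fibroblasts 11 were above 0 in C (all genes 45.4%), with a median of 0.29 and 3 higher at an unadjusted p under 0.05 (all genes 6.23%). The median was -0.014 without C84, slightly below 0 without P74, 0.59 without C79 and 0.76 without P66. Ptgds, a prostaglandin synthase of meninges and oligodendrocytes, was at 228, 207 and 208 FPKM in P and 333, 471 and 386 in C, a difference of 0.87 ± 0.22 (adjusted p = 0.395, limma). The matrix protein Mgp differed by 1.17 ± 0.41. The retinoic acid enzyme Aldh1a2, which meninges make, was at 2.84, 1.88 and 2.10 in P and 2.98, 7.57 and 4.89 in C. It also belongs to the vitamin A list of Stra6, whose 12 genes had a median of 0.27, with Rbp4, the carrier of vitamin A in blood, at 1.1 ± 0.43. The mean log2(FPKM + 1) of the meningeal list ran from 2.46 to 3.53 in P and from 2.85 in C79 to 3.85 in C84. Schwann cell and nerve root genes had a median of -0.29 over 12 genes. Skeletal muscle genes were lower in all 8 tested, with a mean of 0.31 to 0.48 in C, 0.59 and 1 in P66 and P67 and 3.50 in P74. The healthy mice spread further, from 1.58 in H4 and 3.97 in H2 to a still higher value in H1. Erythroid genes, which come from blood, had a mean of 3.83 to 5.47 in H, 3.11 to 3.71 in P and 3.44 to 3.79 in C. H is the baseline of every difference from health given here. The part of dissection or blood content in the results was not tested.

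Genes of the disease can also be chosen from group E against the healthy mice, a contrast that shares no group with C against P, although the fit took its variances from all 12 libraries. The contrast passed 2002 genes as higher (11%) and 390 as lower (2.15%), called higher or lower in disease for short. Since E was read as edaravone-treated, the sets can also hold differences of that drug or of dissection, which were not told apart. The 390 genes that were lower in disease had a median C minus P difference of 0.15, with 309 above 0 (79.2%, all genes 45.4%) and 116 with every C mouse above every P mouse (29.7%, all genes 8.33%). None passed in C against P. Their mean log2(FPKM + 1) was 3.41, 3.54 and 3.59 in P66, P67 and P74 and 3.72, 3.65 and 3.71 in C79, C84 and C85, beside 4.01 to 4.06 in health, so all 3 C mice lay above all 3 P mice and below all 3 healthy mice. Tppp3, Tmem125, Arf5, Snrnp25, Ccdc124 and Plin3, described above, were among them. The set held 15 of the 20 cholesterol synthesis genes, whose median was -0.01, and 8 of the 18 motor neuron genes, whose median was 0.11. It also held 5 of the 9 tested erythroid genes, which mark blood, with a median of 0.37 and 3 above 0. In the alternative fits the set was chosen again, so its genes and its size differ from the 390. Without C79 and C85 its median was 0.13. Without P66 it was 0.07 over 538 genes. With length and GC trends removed it was 0.08 over 1241 genes, of which 75.8% were above 0. With the caudal Hox covariate it was 0.22 over 714 genes. A choice added afterwards, by a fit to the E and H libraries alone, gave 292 lower genes with a median of 0.20, of which 249 were above 0 (85.3%) and 77 had every C mouse above every P mouse (26.4%). The filter on low values still used all libraries.

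The 2002 genes that were higher in disease had a median C minus P difference of -0.08, with 569 above 0 (28.4%, all genes 45.4%). Every C mouse was below every P mouse in 202 (10.1%, all genes 8.77%) and above in 52 (2.6%, all genes 8.33%). The set held 24 of the 28 disease-associated microglia genes, with a median of -0.05. It also held 13 of the 15 meningeal genes (median 0.19) and 9 of the 12 Schwann cell and nerve root genes (median -0.36). The mean log2(FPKM + 1) of the 2002 genes was 2.86, 2.70 and 2.45 in P66, P67 and P74 and 2.50, 2.67 and 2.63 in C79, C84 and C85, beside 1.93 to 2.00 in health. The C mice lay inside the P range here. With the set chosen again, the median moved to 0.01 without P66 (2257 genes) and to -0.18 without P74 (2114 genes). Its direction thus depended on which PBS mouse was left out. With the caudal Hox covariate the set, chosen again, had a median of -0.19, with 11.2% above 0. The fit to E and H alone gave 1458 higher genes with a median of -0.08, of which 414 were above 0 (28.4%) and 82 had every C mouse below every P mouse (5.62%, all genes 8.77%).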

How the data were processed

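Poly(A) RNA was selected from total RNA of the lumbar cord, and strand-marked libraries were made by random priming, per the labels' protocols. The submitters' processing notes name cutadapt, HISAT2, featureCounts and GRCm38 without versions or a strand setting. Overlapping and antisense genes may therefore share reads. The authors deposited 1 table per group for 33906 identifiers. The authors deposited FPKM values, scaled by exon length and mapped reads. The tables name no unit, and it was settled from the values: multiplied by the GENCODE M21 exon length, 95.3 to 95.7% of low values (up to 50 reads) lay within 0.02 of a whole read, and these reads summed to 16.8 to 19.8 M per library. GENCODE M21 matched 33829 identifiers. The scaling totals that the values imply were lower than the recovered reads in every library, for example 15.5 M against 16.8 M in C85. The reason was not tested, so the recovered reads are approximate.

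Since FPKM values are not counts, limma 3.58.1 in R 4.3.3 was fitted to log2(FPKM + 1) of all 12 libraries, with 1 mean per group (8 residual degrees of freedom), trended robust variances and Benjamini-Hochberg adjustment, two-sided, at a threshold of 0.05. This scale understates changes of low genes. Genes entered the test when 3 or more libraries reached the CPM that 10 reads make in the median library, and the total over libraries reached 15 reads. This kept 18119 genes and set aside 15787. Of all genes, 945 were listed at 0 in every library, and Mt2 was near 0 throughout, so a 0 may be a failed estimate. The test was also run on simulated data in which each gene varied independently. That run lacked the shifts shared by many genes between mice seen here, so it does not show how the test performs under them. An exact permutation test of 3 against 3 mice cannot give a p below 0.1, so none is reported. Each number in a library name marks a separate mouse, and replicates of a group are biological per the series text.

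Named genes are those that passed, then the 12 of smallest p in each direction with an assigned name, an average log2 CPM of 1 or more and C and P not overlapping. To these were added up to 3 members of smallest p per list, the superoxide, peroxide and metal handling genes, and 3 disease genes from each of 7 lists chosen by their p in P against H. Hmox1, Ftl1, Fth1, Nfe2l2, Gclm, Cybb and Cyba were named after their values were seen. Some genes that the rule names are not reported here. The members and the 48 gene lists were chosen with earlier results of these data known, and 2 ribosomal lists were added after seeing values. A list is described by its counts and its median. The alternatives were another pseudocount, 2 other filters, median-ratio scaling, limma-voom on recovered reads, a fit to C and P alone, a caudal Hox covariate and each mouse left out. The fit without C79 and C85, the choice of disease genes by a fit to E and H alone and the removal of trends with length and GC share were chosen after seeing the data.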

Additional observations from a re-analysis of the deposited data

How the results depend on the processing

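The number of genes that passed C against P was 1 as reported. It was 0 with a pseudocount of 0.1, with limma-voom, with the caudal Hox covariate and without C79 and C85, 5 with no filter (2 higher and 3 lower in C) and 2 with median-ratio scaling. Leaving out 1 mouse at a time gave 0 to 2. A fit to C and P alone passed 1 gene, Gm24270, in place of Gm10479. Gm10479 passed in 5 of 15 alternatives, with adjusted p from 0.00453 to 0.625 (limma). BC051226 passed in 1, with median-ratio scaling (adjusted p = 0.0475, limma), and Hoxc12, lower in C, in 1, without P66 (adjusted p = 0.0074, limma). Genes at an unadjusted p under 0.05 numbered 963 to 2370 with 1 mouse left out (963 without C85, 1011 without C79) and 543 without both, which leaves 1 C mouse, assumed to vary like the other groups. Without both the medians were 0.050 for superoxide and peroxide enzymes, 0.018 for oxidative phosphorylation and 0.084 for cytosolic ribosomal proteins. With the caudal Hox covariate the median was 0.26 for motor neurons and -0.25 for disease-associated microglia. It was 0.22 for genes lower in disease and -0.19 for genes higher in disease. For superoxide and peroxide enzymes, oxidative phosphorylation and cytosolic ribosomal proteins it was 0.13, 0.38 and 0.45. The median of the genes lower in disease ranged from 0.074 (without P66) to 0.24 (without C84) with 1 mouse left out. It was 0.079 with length and GC trends removed. The disease genes were chosen again in each of these fits, so the sets differ in size. Of 50 gene lists, 33 had a median that changed sign with 1 mouse left out. The cause of these shifts was not tested. Single genes changed sign as well. Without C79 and C85 the differences were Sod1 -0.045, Ccs -0.069, Mt1 -0.16, Mt3 -0.37, Sprr1a 0.23, Itgb2 0.021, Cd109 0.20 and Stard4 0.077. With 1 mouse left out they ranged as Sod2 -0.14 to 0.10, Prdx6 -0.35 to 0.11, Cst7 -0.46 to 0.22, Clec7a -0.71 to 0.027, C4b -0.27 to 0.12, Chodl -0.17 to 0.25, Sprr1a -0.13 to 0.096, C3ar1 -0.43 to 0.10, Serpina3n -0.76 to 0.0025, Cd109 -0.30 to 0.24, Aspg -0.40 to 0.12, Fdft1 -0.057 to 0.16 and Gclm -0.085 to 0.037. With length and GC trends removed they were Sod2 0.063, Mt3 -0.062, Cd109 0.039 and Gclm 0.061. Sod2 was at 0.13 with the caudal Hox covariate, and Chodl at -0.023 with a pseudocount of 0.1 and -0.040 with limma-voom. No paired analysis was possible because the groups share no mouse number.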

Other observations

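Oligodendrocyte precursor genes split between C and P. Of 12 tested, 6 were above 0 and none passed, with a median of -0.06. Tnr, a matrix protein of these cells, was at 12.1, 10.2 and 10.5 FPKM in P66, P67 and P74 and at 7.23, 9.01 and 7.59 in C79, C84 and C85, a difference of -0.42 ± 0.13 (adjusted p = 0.397, limma). Lhfpl3 was also lower in every C mouse, at -0.30 ± 0.12. C1ql1, a secreted protein of the same cells, was at 8.54, 8.18 and 4.79 in P and 9.38, 12.2 and 8.56 in C, a difference of 0.46 ± 0.20. The precursor markers therefore did not share a direction.

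Genes linked to inherited ALS and to axonal transport had a median of -0.01 over 23 tested genes. Nek1, a kinase gene with ALS risk variants in people, was at 8.70, 7.85 and 8.88 FPKM in P and 6.62, 7.23 and 7.04 in C, a difference of -0.25 ± 0.10. Chmp2b, a part of the membrane-sorting machinery of endosomes, differed by 0.19 ± 0.08 in the other direction. Atf5, a transcription factor of the mitochondrial stress response, was at 19.5, 18.2 and 14.1 in P and 20.3, 21.2 and 23.3 in C, a difference of 0.32 ± 0.14, in a stress list of 20 genes whose median was 0.01. None of these passed (adjusted p = 0.445, 0.484 and 0.486, limma). A homeostatic microglia list of 17 genes had a median of -0.11.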
